A study of Homo sapiens with 12 samples.

Results

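The subject is the resting transcriptome of KYSE70, an established human esophageal squamous cell carcinoma line, as measured in the 4 control libraries of a 12-library RNA sequencing series. The 4 were taken because the labels give them as cells without treatment; the other 8 were exposed for 72 h to a drug, either pyrimethamine at 10 µM or mitoxantrone at 20 nM, and none of their values were used. All libraries came from total RNA of cells grown in RPMI1640 medium with fetal bovine serum and antibiotics. The labels name no vehicle for the controls and do not say whether the 4 replicates were separate cultures, so the spread below is between libraries and may be technical.

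The esophagus is lined by a stratified squamous epithelium. Its basal cells carry keratins 5 and 14, desmosomes and hemidesmosomes, and are specified by the transcription factors p63 and SOX2; as cells move up they exchange these for differentiation keratins and for precursors of the cornified envelope. Squamous carcinomas of this tissue often keep the basal programme, amplify growth and lineage genes, lose cell cycle inhibitors and raise the oxidative stress response driven by NRF2, a transcription factor that KEAP1 marks for degradation.

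The control libraries held 66054832, 94516756, 60549420 and 47465335 reads assigned to genes for replicates 1 to 4. Levels are given as TPM, a length-normalized transcript level made of read counts divided by exon length and scaled to the same total in each library, because counts cannot be compared between genes of different length; values after ± are SDs over the 4 libraries (n = 4). At 1 TPM a gene had 14.1 to 27.3 reads per kilobase of exon. A gene was called on when it reached 1 TPM in all 4 libraries and silent when it stayed under 0.1 TPM in all 4. Of 19945 protein-coding genes, 11220 were on (56.3%), 5930 were silent (29.7%) and 2795 lay between or differed between libraries; 3585 had no read in any library. Among 1130 protein-coding genes with over 50% of their exon bases shared with another gene, 70.2% were silent, so a low value of such a gene may be set by how shared reads were counted, and genes named here with more than 25% shared exon are marked. Gene positions are those of GENCODE 29 on GRCh38. Descriptions only are given, since a single untreated group offers no comparison to test.

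**Figure D1:**
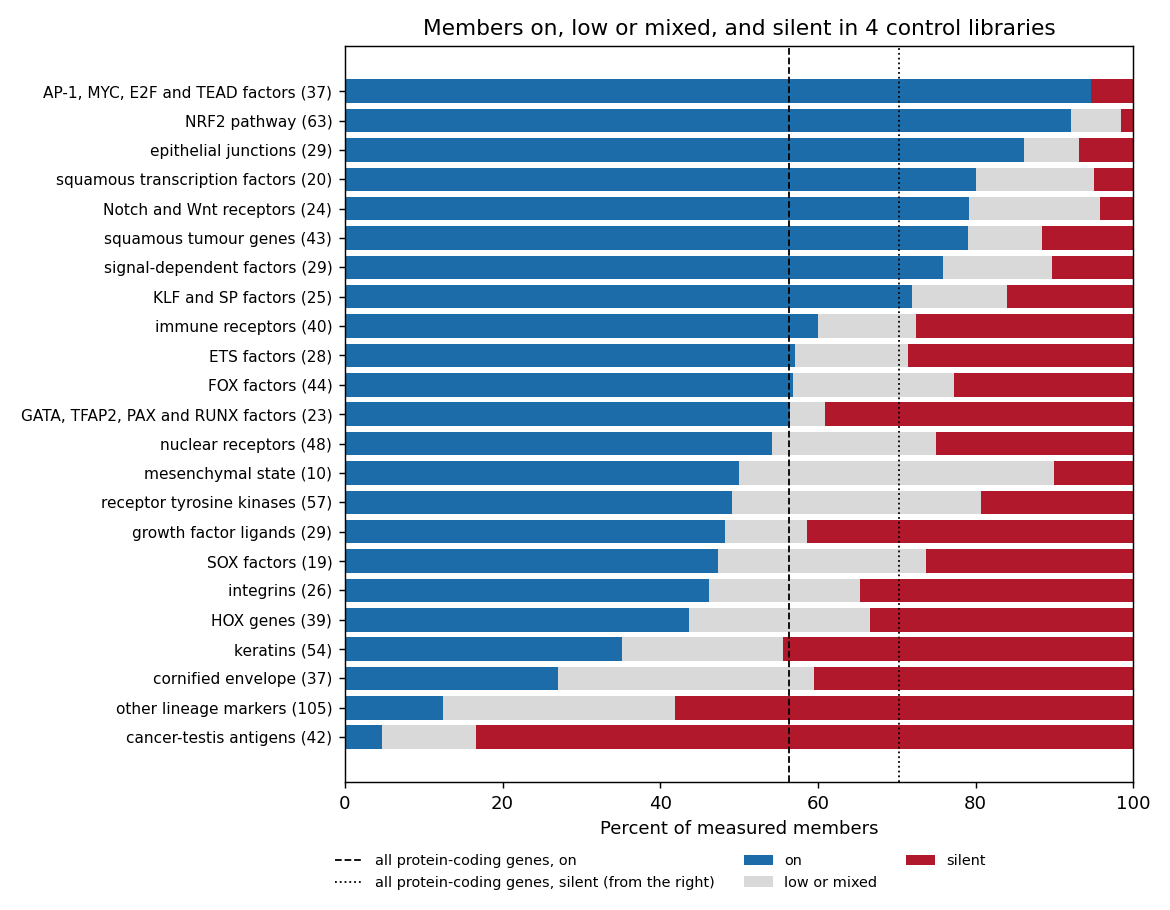
Share of the measured members of 23 gene lists that were on (blue), low or mixed (grey) or silent (red) in the 4 control libraries; the number measured stands in parentheses and the x axis is percent of members. The dashed and dotted lines mark the 56.3% on and 29.7% silent (counted from the right) of all protein-coding genes; NRF2 pathway genes and epithelial junctions lie far above the dashed line, cancer-testis antigens and markers of other lineages far below it.

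The most abundant messages were those of mitochondria, the cytoskeleton, iron storage and translation. Mitochondrial genes took 6.16% to 6.69% of reads and the 80 ribosomal protein genes 5.50% to 5.92%. The 10 most counted genes took 6.73% to 7.10% of reads, and the 1000 most counted took 51.0% to 51.6%. The mitochondrial cytochrome oxidase subunit MT-CO3 stood at 33624 ± 1352 TPM and MT-CO1 at 29890.3 ± 1186 TPM.

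Among nuclear protein-coding genes TMSB10, which encodes an actin monomer binding thymosin, ranked first. Its level was 5584, 5883, 6117 and 6451 TPM in replicates 1 to 4. The lowest of these lay above the highest library of GAPDH, the glycolytic enzyme that ranked second, which read 4382, 4534, 4334 and 4309 TPM. With the longest transcript as length in place of all exon bases this order changed: TMSB10 stood at 4485 TPM, below GAPDH at 5209, FTH1 at 4694, RPS6 at 4654 and ACTB at 4563 TPM. With all exon bases the next places, held by the cytoskeletal actin ACTB at 3900.1 ± 139.9 TPM, the ferritin chains FTH1 at 3807 ± 212 TPM (62.4% of exon shared) and FTL at 3697 ± 110.1 TPM, the elongation factor EEF1A1 at 3764 ± 59.9 TPM and the RNA-binding protein YBX1 at 3659 ± 55.0 TPM, overlapped with each other between libraries and have no firm order. The rest of the 20 highest were the ribosomal protein genes RPS6, RPL41, RPS2 and RPL7A, the ubiquitin gene UBB, the peroxiredoxin PRDX1, the elongation factor EEF2, the tubulins TUBB4B and TUBA1B, the adenine nucleotide carrier SLC25A5, and 3 genes taken up below, TYMS, KRT5 and MYL12B. Shared exon made up 28.4% of UBB, 25.6% of RPS2 and 36.6% of TUBA1B.

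KRT5, the basal keratin, was the one keratin among the 20, at rank 14. TYMS, which makes thymidylate for DNA synthesis, reached 2905 ± 117 TPM; 46.6% of its exon bases are shared with neighbouring or antisense genes. MYL12B, a myosin regulatory light chain on the same chromosome arm, reached 2578 ± 34.1 TPM. Several of these genes have near-identical pseudogene copies in the genome, and how reads matching several places were counted is not given in the sources used here, so their levels are uncertain to that extent.

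Start sites that carry 1 or both of 2 sequence features are shown, because these features were frequent among the highest genes. In the exact letters searched, the starts of GAPDH, YBX1, TYMS, FTL and KRT5, which also rank among the 20 highest, held neither and are not printed. Those of FTL and KRT5 did hold ATAAAA within the stretch searched for a TATA box, a near match that was not counted. Each stretch runs from 45 bases before to 15 bases after the start in RefSeq on GRCh38.p14, on the transcribed strand. Capitals mark a TATA box (TATAAA or TATATA, searched on that strand between 40 and 20 bases before the start) or a run of pyrimidines that opens with C at the first transcribed base.
TMSB10: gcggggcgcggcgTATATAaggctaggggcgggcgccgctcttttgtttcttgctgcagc
EEF1A1: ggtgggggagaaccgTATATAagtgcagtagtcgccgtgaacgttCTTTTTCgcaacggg
RPS6: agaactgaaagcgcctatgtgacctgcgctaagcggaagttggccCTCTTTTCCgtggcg
RPL7A: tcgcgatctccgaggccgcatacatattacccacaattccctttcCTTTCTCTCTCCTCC
RPLP1: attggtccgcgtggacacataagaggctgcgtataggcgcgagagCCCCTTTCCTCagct
KRT10: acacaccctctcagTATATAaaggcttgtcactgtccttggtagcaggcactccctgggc
They lie at chr2:84905611-84905670 (plus strand), chr6:73521018-73521077 (minus), chr9:19380222-19380281 (minus), chr9:133348173-133348232 (plus), chr15:69452773-69452832 (plus) and chr17:40822600-40822659 (minus). RPLP1, a ribosomal stalk protein, and KRT10 were chosen as examples after the search. Sequences were matched for 10977 nuclear protein-coding genes that have 1 start in the table. A start of C followed by 4 bases that are each C or T was found in 4.67% of all of them and in 41 of 54 ribosomal protein genes (75.9%). Outside the ribosomal proteins it was found in 3 of 34 genes at 1000 TPM or more. EEF1A1 carried both features. The TATA box was found in 5.38% of all matched starts, in 1.63% of genes at 10 to 100 TPM, in 26.9% of the 52 genes at 1000 TPM or more, and in 10.6% of silent genes. The ratio of observed to expected CpG over the 300 bases around the start had a median of 0.87 in genes that were on and 0.33 in silent genes. A match is a description of the letters and not evidence of use.

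Of noncoding genes outside mitochondria, pseudogenes left out, BCYRN1, a short RNA polymerase III transcript, was highest at 819 ± 166 TPM. The signal recognition particle RNAs RN7SL2 and RN7SL1 followed at 387 ± 123 and 348 ± 92.9 TPM. Protein-coding genes took 97.3% to 97.4% of reads, and how well short noncoding RNAs were captured was not measured. These levels and their order therefore hold for the libraries and need not be those of the cells. RN7SL2 read 327, 309, 344 and 570.4 TPM, with replicate 4 above the other 3. RN7SL1 and RN7SL2 are near-identical copies, and all of the RN7SL1 exon is shared with another gene model, so the split between them is uncertain. SNHG29, a small nucleolar RNA host gene, stood at 287 ± 10.7 TPM. TYMSOS, which lies opposite the start of TYMS, stood at 193 ± 9.02 TPM, with 38.4% of its exon shared; without a stated strand setting its reads and those of TYMS cannot be told apart.

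The keratins were led by a basal and a wound-induced squamous member, with a simple-epithelial pair below them. Keratins form filaments as pairs of a type I and a type II chain, and each pair marks a stage or a kind of epithelium. Of 54 keratin genes 19 were on (35.2%, against 56.3% of all protein-coding genes) and 24 were silent (44.4%, against 29.7%). Type II chains summed to 4683 ± 150.3 TPM and type I chains to 357 ± 13.7 TPM.

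KRT5 (chr12:52514575-52520687) read 2698, 2939, 2795 and 2822 TPM in replicates 1 to 4. KRT6A, induced in wounded and hyperproliferating squamous epithelium, read 1237, 1305, 1193 and 1255 TPM. Every library of KRT5 lay above every library of KRT6A, and both lay above all other keratins. KRT14, the usual partner of KRT5, was chosen after its values were seen: it read 3.57, 3.85, 2.39 and 3.31 TPM, at rank 10163 of nuclear protein-coding genes against rank 14 for KRT5.

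No type I chain came near KRT5. The highest were KRT18 at 156 ± 9.38 TPM and KRT13 at 130.2 ± 5.36 TPM, the first a simple-epithelial keratin and the second the differentiation keratin of internal squamous linings such as the esophagus. KRT8, the partner of KRT18, stood at 393 ± 9.21 TPM, while KRT4, the partner of KRT13, named after its values were seen, was at 6.53 ± 0.682 TPM. KRT80, found in many epithelia, reached 153 ± 8.20 TPM. KRT10, a keratin of cornifying skin, stood at 28.7 ± 3.22 TPM, and KRT17, a stress keratin, at 14.6 ± 0.839 TPM.

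The keratins of the next sentences were also chosen after their values were seen. KRT15, a basal keratin, stood at 13.7 ± 0.613 TPM and KRT75, of the hair follicle companion layer, at 40.8 ± 5.46 TPM. KRT19 was just on, at 1.49 ± 0.264 TPM, and KRT7, KRT16 and KRT6B lay between the limits at 0.780, 0.429 and 0.971 TPM. KRT6A, KRT6B and KRT6C are close copies, so reads may be split unevenly among them. The skin keratins KRT1 (0.0200 TPM) and KRT2 (0.0179 TPM) were silent. In the start sequences of the 32 keratins with a single entry, a TATA box in the exact letters searched was found in 15 of 19 silent members and in 1 of 6 that were on. KRT5, with the near match ATAAAA, was counted as without.

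**Figure D2:**
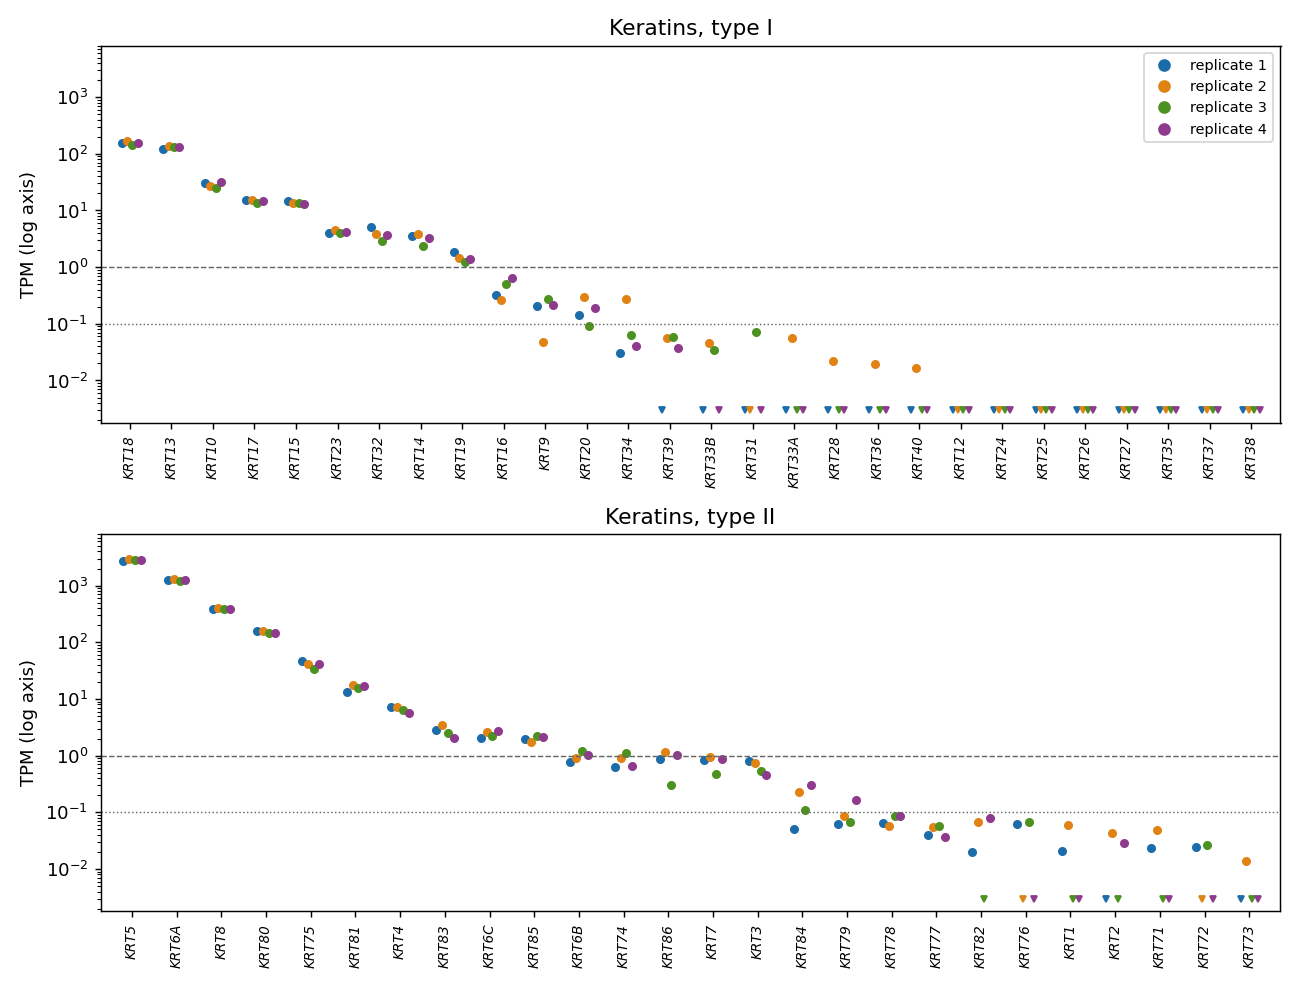
TPM (log axis) of each keratin gene in the 4 control libraries, one point per library, type I above and type II below; triangles at the bottom stand for 0 reads, and the dashed and dotted lines mark 1 and 0.1 TPM. KRT5 and KRT6A stand above 1000 TPM in every library while the highest type I chain, KRT18, stays between 144 and 167 TPM.

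The transcription factors of squamous epithelium were mostly on. Of 20 listed, 16 were on (80.0%, against 56.3% of all protein-coding genes), 3 were low and 1 was silent (5.00%, against 29.7%). SOX2 (chr3:181711924-181714436), which specifies esophageal and other foregut squamous lineage, read 199.8, 196, 199 and 219 TPM. TP63 (chr3:189631416-189897279), the master factor of stratified epithelium, read 131, 125, 120.1 and 119 TPM. Replicate 4 was the highest for SOX2 and the lowest for TP63, and no library of one overlapped the other. With the longest transcript as length the means were nearer, at 152 TPM for SOX2 and 140.3 TPM for TP63.

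KLF5, expressed in proliferating basal cells, stood at 79.9 ± 1.78 TPM. The lowest of the 16, named for that reason, was GRHL1, a grainyhead factor of the epidermal barrier, at 1.13 ± 0.0872 TPM. GRHL2, the grainyhead factor that maintains epithelial junction genes, was the silent member, with 6 reads in the 4 libraries together and a mean of 0.0118 TPM; its exons are almost free of overlap (0.825%). ZNF750 and SOX15, both of late differentiation, were low at 0.492 and 0.484 TPM and are named after their values were seen.

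Adhesion genes of epithelium were nearly all on. In the junction list 25 of 29 members were on (86.2%, against 56.3% of all protein-coding genes) and 2 were silent (6.90%, against 29.7%). Among cadherins and desmosome proteins the p53 and p63 effector PERP stood highest at 480.4 ± 20.8 TPM, with the homotypic adhesion protein EPCAM at 458 ± 8.33 TPM, the plaque protein DSP at 245 ± 17.5 TPM and the basal desmoglein DSG3 at 209.8 ± 17.3 TPM. DSG3 read 232, 214, 201 and 193 TPM, highest in replicate 1 and lowest in replicate 4. The silent members were DSG1, the desmoglein of upper layers, at 0.0261 TPM and DSG4, of hair, at 0.00757 TPM.

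Hemidesmosome and basement membrane genes formed the second block. LAMB3, a chain of laminin 332, stood at 622 ± 42.5 TPM and COL17A1, the transmembrane hemidesmosome collagen, at 456 ± 20.7 TPM. Their integrin receptor chains ITGB4 and ITGA6 were close to each other, at 157 ± 9.46 and 156 ± 12.1 TPM. Over the wider integrin family 12 of 26 genes were on, below the share of all genes. ITGB1, the common beta chain, was highest at 386 ± 8.83 TPM, and ITGA2, a collagen receptor chain, and ITGAV, a vitronectin receptor chain, stood at 62.4 ± 5.27 and 56.8 ± 2.32 TPM. ITGB6, an epithelial partner of ITGAV, was silent at 0.0125 TPM. ITGB5 and ITGB8, which like ITGB1 can also pair with ITGAV, stood at 77.8 and 26.8 TPM.

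Listed genes of the cornified envelope and of squamous differentiation, some of them basal genes, were on less often than protein-coding genes as a whole. Of 37 envelope and differentiation genes 10 were on (27.0%, against 56.3%), 12 were low or mixed and 15 were silent (40.5%, against 29.7%). S100A2, a calcium-binding protein of basal keratinocytes, dominated the list at 1921 ± 76.8 TPM, of a list sum of 2389 ± 69.0 TPM. The plakin PPL stood at 124 ± 8.87 TPM, the protease inhibitor CSTB at 86.5 ± 3.14 TPM and the basal serpin SERPINB5 at 79.8 ± 3.89 TPM. Named after their values were seen, FLG, the filaggrin precursor of granular cells, read 49.6, 47.9, 61.1 and 46.2 TPM with replicate 3 above the others, and involucrin (IVL) stood at 0.0755 TPM. S100A9, SERPINB3 and SERPINB4, which mark differentiated or inflamed squamous epithelium, had no read in any library and are named after their values were seen; 34.9% of the SERPINB3 exon is shared. For S100A9 a floor of 3 reads in the shallowest library would be 0.370 TPM, so the absence of this short gene is less firm than that of longer ones.

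Genes of the mesenchymal state were on about as often as all protein-coding genes. Of 10 listed, 5 were on (50.0%, against 56.3%) and 1, TWIST2, was silent (10.0%, against 29.7%). SNAI2, a repressor of epithelial genes that basal keratinocytes also use, stood at 67.6 ± 3.11 TPM, and CDH2, the neural cadherin, at 56.5 ± 1.86 TPM. CDH1, the epithelial cadherin (named after its values were seen), was at 172 ± 11.4 TPM, so both cadherins were on in every library. CDH2 read 58.5, 57.4, 55.8 and 54.3 TPM and varied by 1.56% in normalized count. SNAI1 stood at 4.54 ± 0.363 TPM and fibronectin (FN1) at 1.43 ± 0.235 TPM while vimentin (VIM), the mesenchymal filament protein, read 2.88, 2.44, 2.52 and 2.56 TPM.

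The markers of the labelled cell type were present. All 14 squamous markers were on, with a summed level of 5875 to 6221 TPM in the 4 libraries. KRT5 at 2814 TPM and KRT6A at 1248 TPM made up most of the mean sum of 6012 TPM. KRT14, also among the 14, was on only at the low level given above. The set does not hold GRHL2 and DSG1, which were silent, or ZNF750, which was low. Since the gene lists were chosen with earlier results of these data known, the count of 14 is a description and no test of identity. Of 8 markers of simple columnar epithelium none were on and 3 had no read, with a summed level of 0.697 to 1.17 TPM. In a wider list of 22 columnar and intestinal markers 3 were on, and the sum was 21.8 ± 1.40 TPM. The simple-epithelial keratins KRT8 and KRT18, which were on, are in neither set. Of 13 leukocyte markers none were on, 5 had no read and the sum was 0.690 to 1.03 TPM. Of 8 endothelial markers 1 was on, the coagulation factor gene VWF at 5.30 ± 0.418 TPM, while PECAM1 had 1 read and KDR none. Of 6 neuroendocrine markers 1 was on, the granule protein CHGB at 3.00 ± 0.340 TPM, and 2 had no read.

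Fibroblast markers had more members on than the marker lists of the other non-squamous types. Of 10, 4 were on, 5 were silent and 3 had no read; the sum was 162 to 173 TPM. COL1A1, the first chain of type I collagen, read 83.2, 86.7, 80.4 and 84.3 TPM. COL1A2, the second chain of the same trimer, had no read in any library, and a floor of 3 reads in the shallowest library would be 0.0191 TPM. THY1, a surface glycoprotein, stood at 58.7 ± 1.99 TPM, the fibrillar collagen COL3A1 at 18.5 ± 1.35 TPM and POSTN, a matrix protein, at 8.03 ± 0.606 TPM. DCN and FAP, also among the 10, were at 0. Of 6 melanocyte markers 1 was on, the melanosome protein PMEL at 7.10 ± 0.380 TPM, and TYR and SOX10 had no read; MITF, which many tissues use in other isoforms, was at 19.6 ± 1.19 TPM. Over all 105 markers of other lineages 13 were on (12.4%, against 56.3% of all protein-coding genes) and 61 silent (58.1%, against 29.7%). Among the columnar factors GATA6 was on at 13.7 ± 1.21 TPM, FOXA1 at 3.43 ± 0.526 TPM and GATA4 at 2.33 ± 0.368 TPM, whereas the intestinal factors CDX1 and CDX2 had no read.

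The NRF2 pathway was on almost throughout. NRF2 (gene NFE2L2) binds antioxidant response elements together with small MAF proteins and drives genes for detoxification, glutathione and thioredoxin metabolism, iron handling and NADPH supply; KEAP1 with CUL3 and RBX1 directs its degradation, and BACH1 competes at the same elements. Of 63 members 58 were on (92.1%, against 56.3% of all protein-coding genes) and 1 was silent (1.59%, against 29.7%). The 58 members with a mean normalized count of at least 100 had a median coefficient of variation of 3.19% between libraries, beside 4.46% for all 12071 genes past that mean, a value that falls with level. Many of these enzymes are widely expressed housekeeping genes, and with no other cell line measured their levels cannot be called high or low for the tissue.

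Of 15 regulators 14 were on. NFE2L2 (chr2:177227595-177392697) read 46.3, 47.3, 43.7 and 42.0 TPM. KEAP1 (chr19:10486120-10503741) read 145, 147, 136 and 144 TPM. KEAP1 was above NFE2L2 in each library, and the 2 sets of values did not overlap. With the longest transcript as length NFE2L2 stood at 70.1 TPM and KEAP1 at 135.9 TPM. SQSTM1, which sequesters KEAP1 and is itself a target, was the highest regulator at 199 ± 5.45 TPM, and NFE2L1, the related factor that controls proteasome genes, stood at 144 ± 1.48 TPM. The small MAF partner MAFG and the competitor BACH1 were nearly level, at 21.2 ± 0.462 and 20.1 ± 0.719 TPM.

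Detoxification enzymes were on in 17 of 19 cases. GSTP1, a glutathione transferase, stood at 1263 ± 34.6 TPM and ALDH3A1, an aldehyde dehydrogenase, at 925 ± 17.6 TPM. NQO1, the quinone reductase often used as the readout of NRF2, read 450.3, 462, 462 and 451 TPM, a spread of 2.50% in normalized count. EPHX1, an epoxide hydrolase, stood at 404 ± 16.1 TPM. The aldo-keto reductase AKR1B10 was at 363 ± 8.87 TPM and AKR1C1 at 119.8 ± 2.59 TPM; AKR1C1 and AKR1C2 are near-identical in sequence, so the split between them is uncertain. CBR1, a carbonyl reductase, was the one silent member, with 6 reads in all and a mean of 0.0375 TPM; it was no longer silent when the limit was set at 0.05 TPM.

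Of 10 glutathione and thioredoxin genes 9 were on. PRDX1, a peroxiredoxin, stood at 2839 ± 77.5 TPM, thioredoxin (TXN) at 1516 ± 56.6 TPM and thioredoxin reductase (TXNRD1) at 488 ± 5.74 TPM. GPX2, the glutathione peroxidase of epithelial linings, was at 381 ± 8.97 TPM. The glutathione synthesis subunits were lower: GCLC, the catalytic subunit, at 100.4 ± 1.99 TPM and GCLM, the modifier, at 54.8 ± 2.17 TPM. With the longest transcript as length GCLC stood at 169.9 TPM and GCLM at 45.6 TPM. SLC7A11, the cystine importer, read 32.5, 29.5, 30.2 and 26.0 TPM, with replicate 4 lowest. SRXN1, a sulfiredoxin named after its values were seen, read 1.89, 0.977, 1.04 and 2.37 TPM, but 85.0% of its exon is shared with another gene.

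All 7 heme and iron genes and all 5 NADPH genes were on. Apart from the ferritin chains, the biliverdin reductases BLVRA and BLVRB stood at 157 ± 6.03 and 153 ± 4.42 TPM, and heme oxygenase 1 (HMOX1) at 74.4 ± 4.01 TPM. In the pentose phosphate pathway PGD stood at 767 ± 11.2 TPM, TKT at 289.9 ± 10.3 TPM and TALDO1 at 238 ± 5.17 TPM, and malic enzyme ME1 at 100.3 ± 2.86 TPM. Of the export pumps ABCC1 was highest at 132 ± 10.54 TPM, and ABCC5, ABCC4 and ABCG2 lay between 13.05 and 19.4 TPM.

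**Figure D3:**
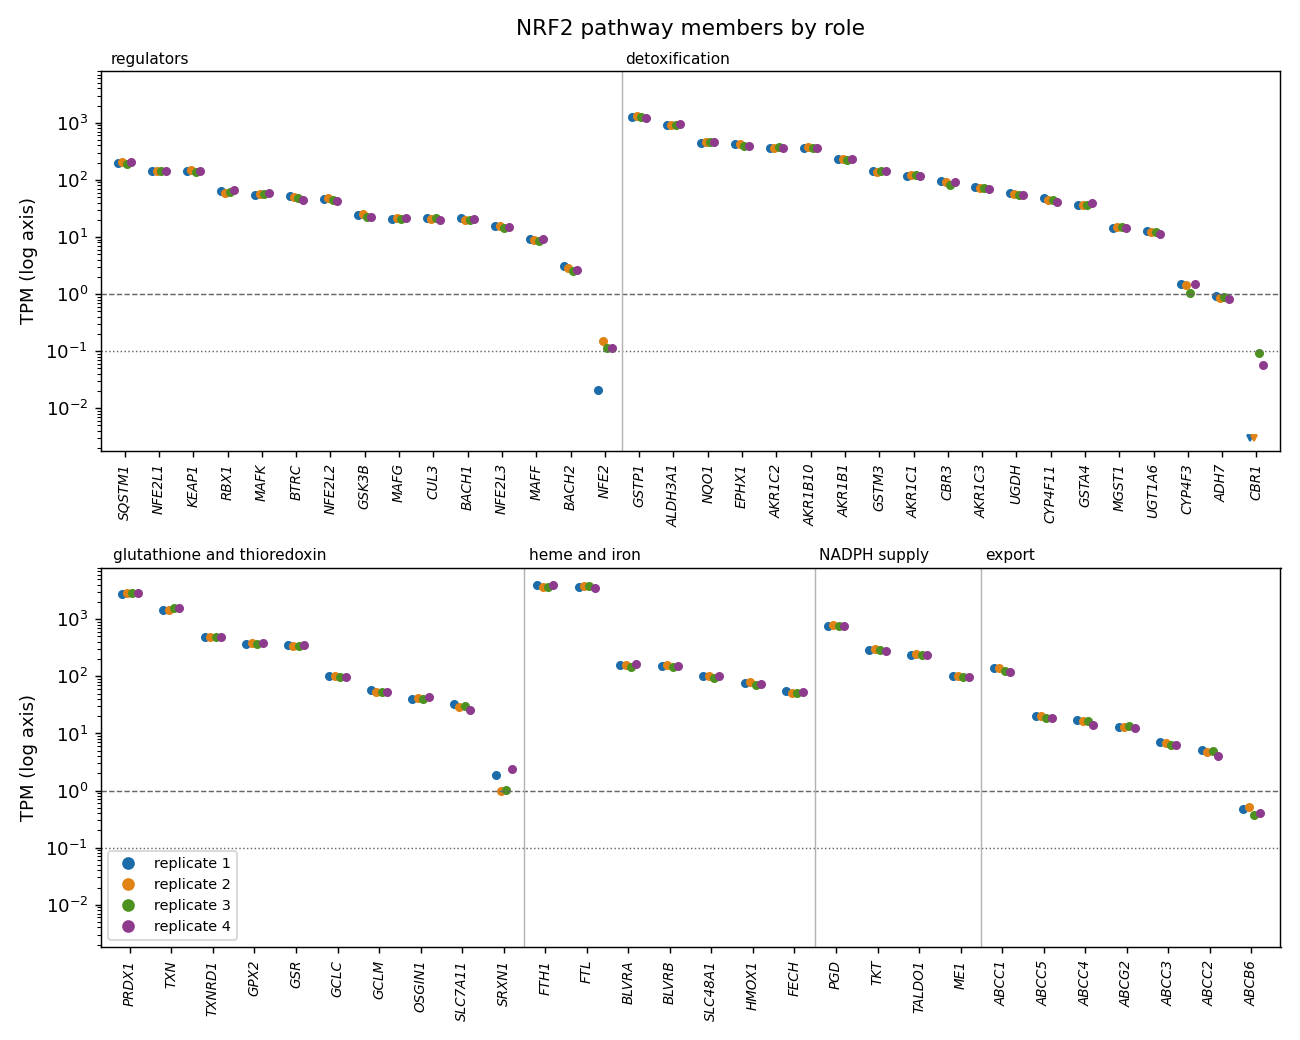
TPM (log axis) of 62 NRF2 pathway members in the 4 control libraries, one point per library, grouped by role and ordered by mean level within a role; triangles stand for 0 reads and the lines mark 1 and 0.1 TPM. The 4 points of most members lie on top of each other, and CBR1, NFE2, ABCB6, ADH7 and SRXN1 are the 5 members that were not on.

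Start-site stretches of some listed targets that hold the letters of an antioxidant response element, the motif NRF2 is known to bind, are shown; binding was not measured. The letters searched were TGACNNNGC, on both strands, over 250 bases before and 50 after the RefSeq start (GRCh38.p14). Capitals mark the match.
GCLM: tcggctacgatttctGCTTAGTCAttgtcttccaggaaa
ME1: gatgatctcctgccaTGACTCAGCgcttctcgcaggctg
GSTP1: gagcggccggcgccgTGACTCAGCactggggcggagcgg
GPX2: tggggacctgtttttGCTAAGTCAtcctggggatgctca
PGD: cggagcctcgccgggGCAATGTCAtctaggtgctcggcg
They lie at chr1:93909441-93909479 (minus strand), chr6:83431165-83431203 (minus), chr11:67583731-67583769 (plus), chr14:64942844-64942882 (minus) and chr1:10398848-10398886 (plus), with the match centred 30, 133, 62, 118 and 197 bases before the start. In ME1 and GSTP1 the element is written forwards and in the other 3 in reverse complement. Of 48 listed targets 28 had a single start sequence, and 10 of these held a match (35.7%), against 14.5% of all 10977 starts. The share was not particular to the targets. A match was held by 32.4% of the 34 genes at 1000 TPM or more outside the ribosomal proteins, GSTP1 among them, and by 28.1% of 32 keratins. Of the 10 targets with a match, 8 were on, CBR1 was silent and ABCB6, a mitochondrial transporter with 54.7% of its exon shared, was low at 0.446 TPM. Elements farther from the start fall outside this window.

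Among receptor tyrosine kinases EGFR stood highest. Of 57 measured 28 were on (49.1%, against 56.3% of all protein-coding genes) and 11 silent (19.3%, against 29.7%). EGFR (chr7:55019021-55211628) read 181, 167, 165 and 147 TPM, lowest in replicate 4. Its relative ERBB2 stood at 24.5 ± 0.929 TPM, and ERBB3 and ERBB4 did not reach 1 TPM, at 0.734 and 0.554 TPM (both named after their values were seen). The collagen receptor DDR1 stood at 99.8 ± 4.85 TPM, the ephrin receptors EPHA2 and EPHB4 at 98.8 ± 2.54 and 59.8 ± 3.17 TPM, and MET, the receptor for hepatocyte growth factor, at 62.9 ± 5.50 TPM. All 4 FGF receptors were on, in the order FGFR2 (38.0 TPM), FGFR1 (27.2 TPM), FGFR3 (13.3 TPM) and FGFR4 (4.23 TPM). KIT, FLT3 and KDR, receptors of blood and vessel lineages, had no read.

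Messages of ligands of the EGFR family were present in the same libraries. Of 11 listed, the neuregulins of ERBB3 and ERBB4 included, 6 were on (54.5%, against 56.3% of all protein-coding genes) and 4 silent (36.4%, against 29.7%). Amphiregulin (AREG) read 112, 115, 111 and 114 TPM, and TGFA stood at 88.2 ± 2.25 TPM and NRG1, a ligand of ERBB3 and ERBB4, at 66.5 ± 3.51 TPM. Amphiregulin varied by 2.63% in normalized count and its libraries overlapped with none of those of TGFA. EREG, BTC, EPGN and NRG3 were silent, at 0.0148, 0.00466, 0.0123 and 0.0166 TPM. Among other ligands FGFBP1, a carrier that releases FGFs from matrix, stood at 122 ± 5.32 TPM, PDGFA at 56.6 ± 3.15 TPM and FGF2 at 35.2 ± 2.02 TPM. HGF, the ligand of MET, was at 0.00725 TPM and is named after its value was seen.

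Nuclear receptors as a family were on about as often as all genes, 26 of 48. Of the steroid receptors the glucocorticoid receptor NR3C1 stood at 43.0 ± 2.68 TPM, and ESR1, ESR2 and PGR were silent. Among lipid and retinoid receptors the epithelial retinoic acid receptor RARG was highest at 66.5 ± 2.41 TPM and its partner RXRA stood at 50.4 ± 1.26 TPM. Of the orphan receptors ESRRA, which controls mitochondrial genes, stood at 73.8 ± 3.18 TPM and NR2F2 at 59.1 ± 1.20 TPM. PPARG, NR1I2 and NR1H4, receptors of fat, xenobiotic and bile acid sensing, were silent.

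Of Notch and Wnt receptors and ligands 19 of 24 were on (79.2%, against 56.3% of all protein-coding genes). The Notch ligand JAG1 stood at 129 ± 11.5 TPM and the receptor NOTCH2 at 29.5 ± 2.75 TPM. FZD6 was the highest Frizzled at 101 ± 2.23 TPM, with FZD1 at 79.1 ± 3.88 TPM, the R-spondin receptor LGR4 at 64.4 ± 4.14 TPM and the co-receptor LRP5 at 54.7 ± 1.47 TPM. LGR6 was silent. Toll-like receptors were sparse, with 3 of 10 on (30.0%, against 56.3%). TLR3 stood at 3.51 ± 0.324 TPM, TLR4 at 3.15 ± 0.242 TPM and TLR6 at 1.83 ± 0.239 TPM, and TLR2 was at 0. Of 30 cytokine and death receptors 21 were on (70.0%, against 56.3%), led by IL13RA1 at 85.7 ± 3.63 TPM, TNFRSF1A at 83.7 ± 2.63 TPM and IFNGR2 at 81.4 ± 3.62 TPM. Interferon-side factors were uneven: IRF3 and STAT6 stood at 76.4 ± 2.33 and 63.3 ± 1.46 TPM, whereas IRF7 and IRF8 had no read; a floor of 3 reads in the shallowest library would be 0.0812 TPM for IRF7.

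Growth-related factors were on nearly without exception: 35 of 37 AP-1, MYC, E2F and TEAD genes (94.6%, against 56.3% of all protein-coding genes). These included 10 of 10 in the E2F group and 6 of 6 YAP and TEAD genes. MYC stood at 178 ± 3.92 TPM while MYCN was silent. ATF4, the stress response factor, was highest at 282 ± 12.3 TPM, YAP1, the Hippo effector, stood at 159 ± 6.04 TPM and the E2F partner TFDP1 at 141 ± 2.65 TPM. FOXM1, which drives mitotic genes, led the FOX family at 165 ± 3.91 TPM, in which 25 of 44 were on. ELK1 led the ETS family at 118 ± 2.84 TPM, in which 16 of 28 were on, and both shares lie near that of all genes.

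In the SOX family 9 of 19 were on (47.4%, against 56.3% of all protein-coding genes) and SOX2 stood apart: the second, SOX12, was at 43.5 ± 1.93 TPM. Of KLF and SP factors 18 of 25 were on (72.0%), with KLF5 and KLF16 (76.5 ± 4.52 TPM) close together. Among GATA, TFAP2, PAX and RUNX factors 13 of 23 were on (56.5%), a share near that of all genes. GATA2, a factor of blood and urogenital lineages, read 29.2, 29.6, 27.5 and 29.8 TPM. PAX7, a factor of muscle stem cells and neural crest, read 23.8, 23.3, 23.0 and 23.5 TPM. Both were steady in all 4 libraries, while the muscle factors MYOD1 and MYOG that follow PAX7 in muscle were at 0 and 0.0146 TPM. RUNX3 stood at 18.2 ± 1.13 TPM, and GATA3, named after its value was seen, at 0.122 TPM.

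HOX genes, which set position along the body axis and lie in 4 clusters in the order of their paralog numbers, were on in part, with the highest levels at paralogs 7 to 13. Of 39, 17 were on (43.6%, against 56.3% of all protein-coding genes) and 13 silent (33.3%, near the 29.7% of all). At a limit of 5 TPM 8 were on. HOXC10 read 83.7, 84.5, 82.8 and 84.3 TPM, HOXB7 79.3, 74.3, 72.4 and 76.3 TPM and HOXC13 54.2, 52.3, 50.2 and 54.0 TPM. These were the 3 highest, and HOXC10 varied by 1.88% in normalized count. HOXB13 stood at 20.3 ± 0.994 TPM, HOXB9 at 13.9 ± 0.790 TPM and HOXA13 at 13.2 ± 1.07 TPM. HOXB1 to HOXB5 were all silent, and in the D cluster HOXD8 alone was on, at 1.86 ± 0.277 TPM. HOX genes overlap antisense and neighbouring transcripts, with 32.9% of exon shared for HOXB6, 59.9% for HOXC5, 58.1% for HOXD1, 74.1% for HOXD3 and 80.5% for HOXD4, so the low values of those members are uncertain.

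**Figure D4:**
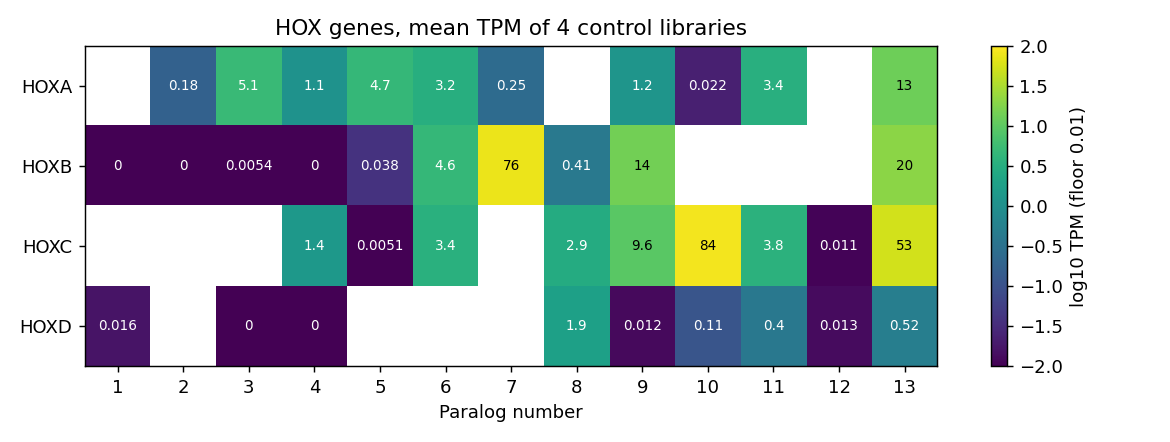
Mean TPM of 38 HOX genes over the 4 control libraries, by cluster (rows) and paralog number (columns); colour is log10 TPM with a floor of 0.01, the number in each cell is the mean TPM and white cells have no gene or none drawn. Signal gathers at paralogs 7 to 13 of the B and C clusters, and the D cluster is near empty.

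Genes that are often altered in squamous tumours of the esophagus were mostly on, 34 of 43 (79.1%, against 56.3% of all protein-coding genes). CCND1, the cyclin of the G1 phase, stood at 206 ± 6.60 TPM and its kinase CDK4 at 349 ± 7.33 TPM (43.2% of exon shared). The kinase inhibitors CDKN2A (chr9:21967753-21995301) and CDKN2B (chr9:22002903-22009363) had 0 reads in all 4 libraries. A floor of 3 reads in the shallowest library would be 0.0493 TPM for CDKN2A and 0.0526 TPM for CDKN2B. Other inhibitors were on, CDKN1A at 125 ± 3.78 TPM and CDKN1B at 92.9 ± 2.47 TPM.

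Genes around CCND1 on chromosome 11 did not share a level. FADD, a death receptor adaptor, stood at 113 ± 8.12 TPM (54.9% of exon shared) and CTTN, a cortical actin regulator, at 102 ± 2.13 TPM, while FGF3, FGF4 and FGF19 from the same stretch as CCND1 had no read. Of signalling and suppressor genes TGFBR2 was highest at 189.8 ± 11.9 TPM, the atypical cadherins FAT1 and FAT2 stood at 75.7 ± 9.91 and 41.4 ± 4.19 TPM and HRAS at 73.4 ± 2.20 TPM.

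Cancer-testis antigens, normally confined to germ cells, were almost all off: 2 of 42 were on (4.76%, against 56.3% of all protein-coding genes) and 35 silent (83.3%, against 29.7%). PRAME read 120.3, 122, 123 and 122 TPM, with a coefficient of variation of 2.66% in normalized count, and SSX1 stood at 2.17 ± 0.551 TPM. None of 20 MAGE genes was on and 18 were silent. Many members of these families are near-identical copies, so reads matching several of them may not have been counted.

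The 4 libraries agreed closely. The median coefficient of variation of normalized counts was 4.46% over 12071 genes with a mean of at least 100, with the 5th and the 95th percentile at 1.43% and 13.9%; counting error alone would give a median of 2.19%. It was 7.99% for the 3916 genes with a mean of 100 to 1000 and 2.87% for the 1295 at 10000 or more. The common biological coefficient of variation from edgeR was 4.62%. Pearson's r of log2 normalized counts across these genes, which are not independent replicates, was 0.997 to 0.998 for the 6 pairs of libraries. The highest library exceeded the lowest 1.5 times in 248 genes and 2 times in 10.

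Variance over counting error grows with the count, so the genes that lead it are abundant or long ones and their coefficients of variation need not be large. MT-CO1 had a variance 1841 times that of counting, MT-CO3 1459.9 times and MT-CO2 823 times, at coefficients of variation of 4.66%, 5.48% and 4.86%, near the median of all genes. AHNAK, a giant scaffold protein, read 106, 94.8, 112 and 80.2 TPM; DYNC1H1, the dynein heavy chain, read 53.5, 51.3, 51.6 and 39.5 TPM; PRKDC, a large DNA repair kinase, read 178, 172, 185 and 146 TPM. Replicate 4 was the lowest in all 3. HSPB1, a small heat shock protein, read 1432, 1415, 1322 and 1636 TPM and RPS2 read 3024, 2819, 2771 and 3223 TPM, both highest in replicate 4. The steadiest genes with a mean of at least 1000 were OSBP2 (0.153%), EPCAM (0.273%), CALR (0.283%), RNF103 (0.300%) and IVD (0.300%), all below their counting error.

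Replicate 4, the shallowest library, stood farthest from the mean. Its deviation exceeded 0.5 on the log2 scale in 26 genes, against 11 in replicate 3 and 3 each in replicates 1 and 2. Deviations moved with transcript length and GC content. In the shortest decile of transcripts the median deviation of replicate 4 was 0.05 on the log2 scale and in the longest decile -0.07, whereas replicate 1 went from -0.04 to 0.03. Across GC content replicate 4 went from -0.04 in the lowest decile to 0.05 in the highest, and replicate 3 from 0.04 to -0.05. Across 11255 protein-coding genes Spearman's rho of the deviation with length was 0.28, 0.09, 0.13 and -0.41 for replicates 1 to 4, and with GC -0.10, 0.12, -0.42 and 0.35. Their part in the spread of AHNAK, DYNC1H1, PRKDC, EGFR and RN7SL2 was not tested.

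**Figure D5:**
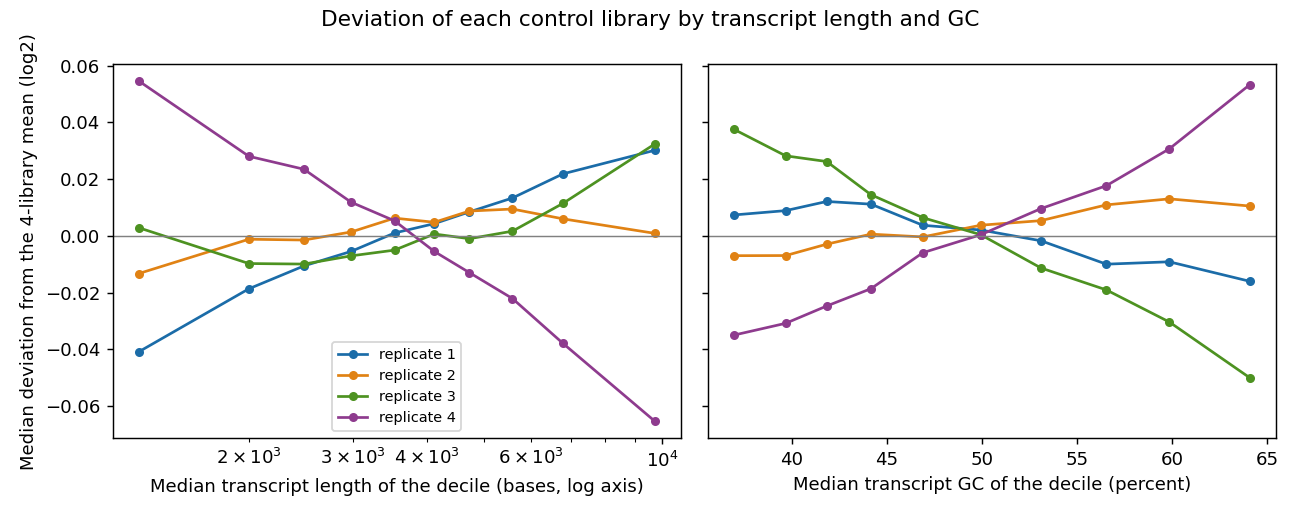
Median deviation of each control library from the 4-library mean (log2 normalized count) in deciles of 11255 protein-coding genes by transcript length (left, log axis) and GC content (right). Replicate 4 slopes down with length, from 0.05 to -0.07, and replicates 3 and 4 slope in opposite directions with GC.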

How the data were processed

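Total RNA of KYSE70 was sequenced in 12 libraries, of which the 4 control libraries were used. Per the submitters' processing notes, tools were featureCounts 1.5.1, STAR 2.6.90c, FastQC 0.11.5 and cutadapt 1.12, with the builds hg38 and mm10 listed; the annotation release, strand setting and counting of shared reads are not given in the sources used here. The deposited values are a normalized signal, whole read counts scaled by a constant for each library. Reads were recovered as whole multiples of each library's smallest step (100% whole within 0.01 read). Levels were computed as TPM with GENCODE 29 exon lengths for 58611 of 58884 genes; the other 273 took at most 0.0039% of reads. Coefficients of variation used the deposited normalized counts, and the common dispersion used edgeR 4.0.16 (R 4.3.3) on genes with a mean of at least 10 reads. The steps were tested on simulated data. Start sequences are from RefSeq.

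The gene lists (838 genes, 833 measured) and the rule for named genes were chosen with earlier results of these data known. The rule names the 20 highest nuclear protein-coding and 5 highest noncoding genes, up to 4 highest members that were on in each list and role (all where at most 5 were on, and all silent members where at most 5), 12 NRF2 genes, the 12 protein-coding genes with most variance over counting error and the 5 steadiest. Some genes the rule names are not reported here. Genes named beyond it were picked once their values had been seen. The 5 list members without a value are not analysed here. Alternatives changed the limits, the length, the scaling, the filters and the libraries.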

Additional observations from a re-analysis of the deposited data

Results flagged for a closer look

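Of 98 measures examined for a library far from the other 3 (library shares, summed levels of lists, and named genes), 3 were set apart, each by replicate 4; about 1 in 20 groups would be set apart by chance. RN7SL2 stood at 570.4 TPM in replicate 4 against 309, 327 and 344 TPM in the others, and RN7SL1, its near-identical copy, at 487 TPM. DYNC1H1, the dynein heavy chain, stood at 39.5 TPM in replicate 4 against 51.3 to 53.5 TPM. Replicate 4 was also the library whose values fell with transcript length, and the part of this in the 3 values was not tested.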

How the results depend on the processing

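No paired analysis was possible because a single group was described and no test was made. Counts of protein-coding genes on and silent stayed within 1.5 times under every alternative run. With on set at 5 TPM, 12 keratins were on, 2 mesenchymal genes, 7 markers of other lineages, 15 immune receptors, 8 HOX genes, 7 GATA, TFAP2, PAX and RUNX factors and 1 cancer-testis antigen. With silent set under 0.05 TPM, 1 junction gene, 0 NRF2 genes, 5 integrins and 1 of the AP-1, MYC, E2F and TEAD factors were silent. With silent set at 3 reads or fewer these counts were 1, 0, 3 and 1, with 7 growth factor ligands. With TPM over nuclear coding genes alone 0 NRF2 genes were silent. Leaving out single libraries gave 1 to 2 silent mesenchymal genes, the 2 being without replicate 3. The median coefficient of variation was 3.59% at a mean of at least 1000, 5.95% at 10 and 3.72% to 4.61% with 1 library left out, lowest without replicate 4. The common biological coefficient of variation was 3.88% (without replicate 4) to 5.21% with 1 library left out. The cause of these moves was not tested. Of 41 single-gene TPM values, 35 moved by more than their SD with the longest transcript as length and 40 with TPM over nuclear coding genes. None moved with a library left out, but leaving out 1 of 4 values cannot shift a mean by more than its SD. That alternative was therefore no test of the single-gene values. Short genes are limited by depth, since a few reads can pass 0.1 TPM.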

Other observations

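The genes below were picked once their values had been seen, and no cause was tested. Several genes usually found with epithelial cadherin were low or silent although EPCAM and CDH1 were on: the splicing regulators ESRP1 and ESRP2 stood at 0.658 ± 0.0945 and 0.175 ± 0.0569 TPM, the small GTPase RAB25 had 1 read and the protease inhibitor SPINT2 stood at 0.384 ± 0.0234 TPM. Its relative SPINT1 was on at 163 ± 6.76 TPM, as was their target protease ST14, which read 60.5, 61.9, 59.2 and 60.0 TPM. Around CDKN2A and CDKN2B on chromosome 9, KLHL9 stood at 60.8 ± 1.27 TPM, MTAP at 20.8 ± 0.455 TPM and DMRTA1 at 8.63 ± 0.908 TPM, while the antisense gene CDKN2B-AS1 read 0.733, 0.621, 0.785 and 0.585 TPM.

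Levels also varied along chromosomes. The median TPM of 10 neighbouring genes that were on had a median of 24.5 over 10995 overlapping windows, and 1% of windows exceeded 92.1. The third highest separate window lay on chromosome 3 from 179347692 to 181714436, from MFN1 to SOX2, with a median of 207 TPM (203 to 212 by library). In it MRPL47, a mitochondrial ribosomal protein gene, stood at 1182 ± 23.8 TPM and ACTL6A, a chromatin remodelling subunit, at 660.2 ± 17.0 TPM. The fifth lay on chromosome 18 from 657604 to 3278431, with a median of 147 TPM (140.3 to 151.9 by library); it held TYMS, the kinase YES1 at 1154 ± 48.7 TPM, MYL12A at 929 ± 14.03 TPM and MYL12B, beside EMILIN2 at 1.54 ± 0.215 TPM. Paired genes also diverged: the fucosidase FUCA1 stood at 24.7 ± 2.32 TPM while FUCA2 had 2 reads, and CBR3, a carbonyl reductase like the silent CBR1, stood at 90.1 ± 6.53 TPM (42.2% of exon shared). Long noncoding RNAs with a steady level were TMEM132D-AS1 at 124 ± 1.63 TPM, ESRG at 97.1 ± 1.04 TPM and LINC01503 at 50.2 ± 2.12 TPM.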
